A study of Drosophila melanogaster with 6 samples.

Results

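The cytosolic ribosomal protein genes of Drosophila melanogaster were followed in brain RNA sequenced after rRNA depletion and after polyA enrichment. They were taken from the count table by symbol, as every gene whose name starts with RpL, RpS or RpLP followed by a digit, which left out mitochondrial ribosomal proteins (mRp) and RNA polymerase I and II subunits (RpI, RpII). This gave 92 of 16725 genes, with 47 of the large subunit, 37 of the small subunit, 3 of the stalk (RpLP0, RpLP1 and RpLP2) and 5 whose symbols end in -like. The Ensembl annotation (assembly BDGP6, in dm6 coordinates) gives these prefixes to the same 92 genes, and lists RpL37a and RpL37b as RpL37-1 and RpL37-2.

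The study compared libraries made by rRNA depletion, in which DNA probes bind rRNA and RNase H digests the hybrids, with libraries made by polyA enrichment, which keeps RNAs with a polyA tail. All 4 libraries came from brains of 5-day-old adult Canton-S flies, a wild-type strain, with about 15 brains pooled per sample and the sex not given. There were 2 libraries of each label, numbered 1 and 2, and per the methods of the study these were 2 biological replicates whose total RNA was split between the protocols. Library totals were 12142737 and 14295047 counts for rRNA-depleted 2 and 1 and 11838449 and 13821678 counts for polyA-enriched 2 and 1, so the depth was lower in both libraries numbered 2. A floor of 3 counts corresponded to 0.210 to 0.253 CPM, the usual expression unit in which counts are scaled to the library total, and covers counting error only. The libraries made from S2 cells, a cell line, were not analysed here.

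Cytosolic ribosomal proteins assemble with rRNA into the small subunit, which decodes mRNA, and the large subunit, which forms peptide bonds. Their mRNAs are short, abundant and made in nearly every cell, they start with a run of pyrimidines through which their translation is controlled together, and in flies many of the loci are known as Minute loci because losing a copy gives small bristles and slow development. Several proteins are encoded by a pair of paralogues, of which a copy is often used mainly in the germline.

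Of the 92 genes, 84 had at least 10 counts in at least 2 libraries and entered the tests. Of the 8 that did not, RpL10Aa, RpL22-like, RpS28-like and RpS28a had 0 counts in every library. RpL7-like and RpS19b each had 1 count in polyA-enriched 2 and 0 elsewhere, and RpL37b had 1 count in each polyA-enriched library and 0 in the rRNA-depleted ones. RpS10a had 2 counts in both rRNA-depleted libraries, 2 in polyA-enriched 2 and 4 in polyA-enriched 1. All 8 have a paralogue that was abundant in the same libraries.

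The abundant members lay within a narrow band. Over the 81 genes with a mean above 20 CPM, the mean level ran from 67.0 CPM for RpL34a to 1081 CPM for RpL5, with a median of 383 CPM. RpL5, which carries 5S rRNA into the large subunit together with RpL11, had 705 and 1193 CPM in rRNA-depleted 2 and 1 and 783 and 1645 CPM in polyA-enriched 2 and 1. RpL3, which lies close to the peptidyl transferase centre, followed with 502 and 987 CPM in rRNA-depleted 2 and 1 and 807 and 1499 CPM in polyA-enriched 2 and 1. Both had their highest value in polyA-enriched 1 and their lowest in rRNA-depleted 2. RpS6, the small subunit protein phosphorylated by S6 kinase, averaged 837 CPM and RpL7A 802 CPM. RpS6 shares exonic sequence with CR33222 on the same strand.

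**Figure D1:**
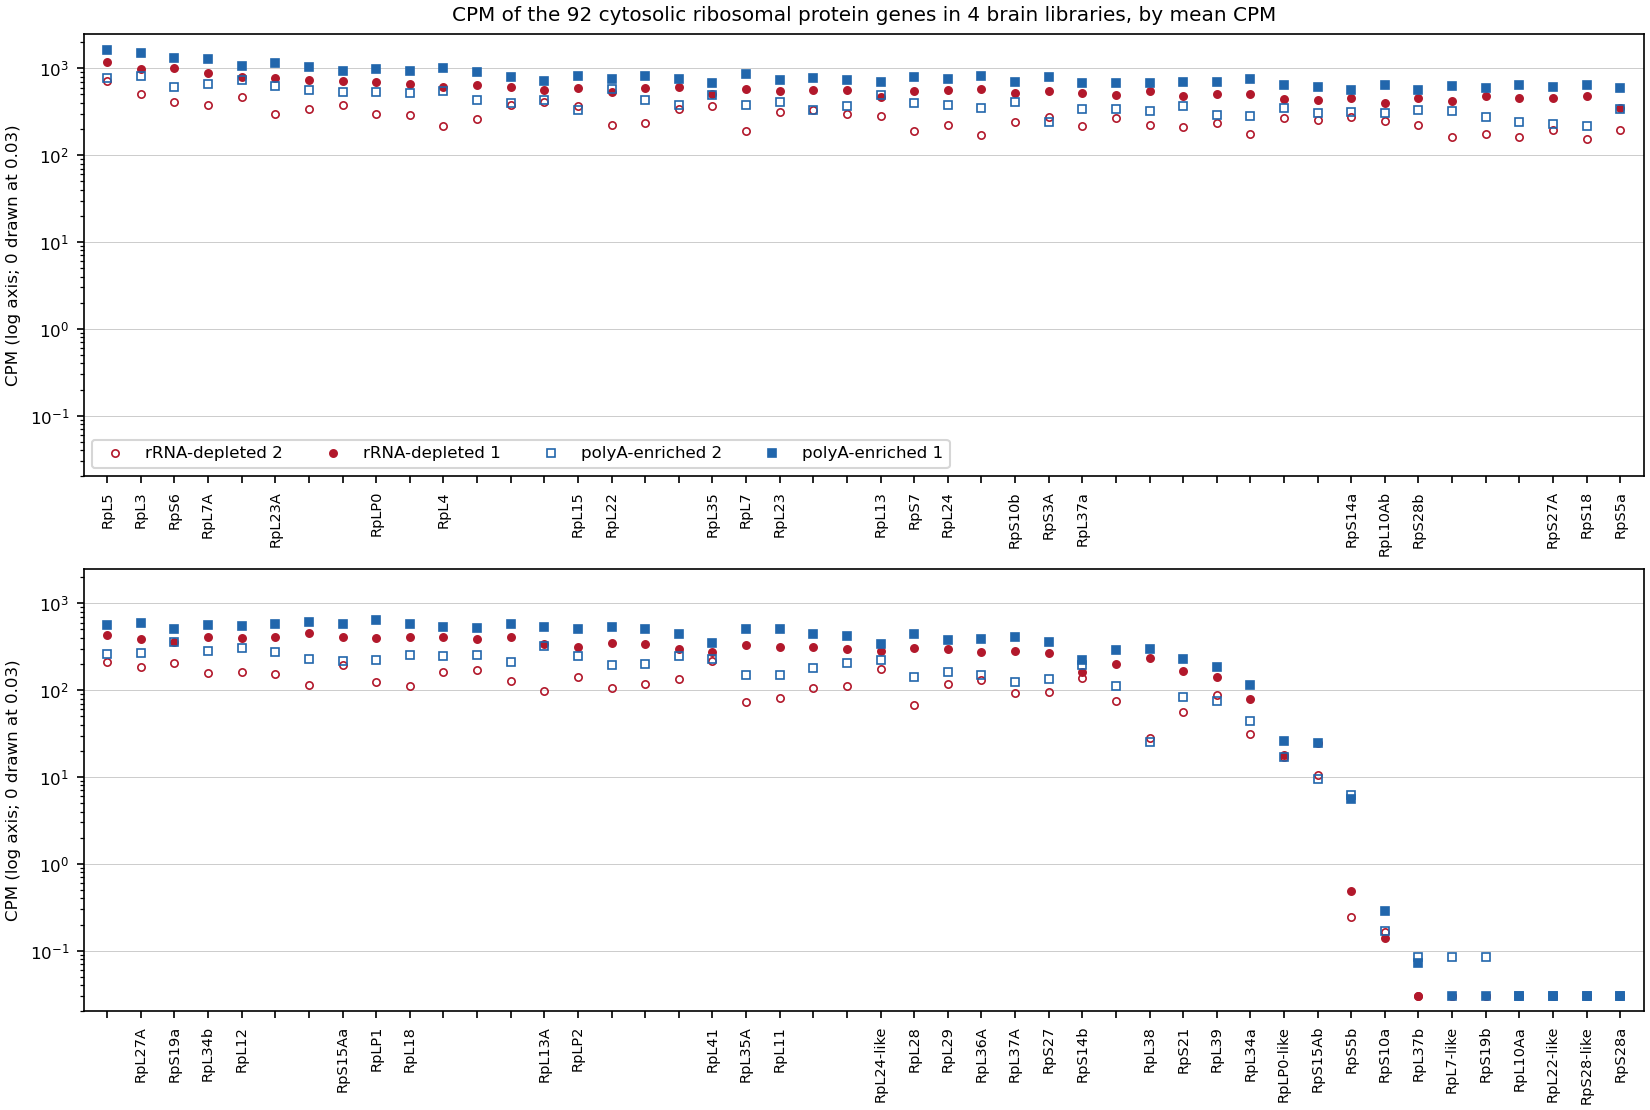
CPM (log axis, 0 drawn at 0.03) of each of the 92 genes in the 4 libraries, ordered by mean, with names given for genes described in the text. Open symbols are the libraries numbered 2 and filled symbols those numbered 1, circles are rRNA-depleted and squares polyA-enriched. RpL5 is highest at a mean of 1081 CPM, 81 genes have a mean above 20 CPM, RpL38 stands out by its low values in both libraries numbered 2, and the levels drop off over the paralogues at the right end.

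Read counts rise with the length of the mRNA, so levels of different genes were compared per length, as RPKM, the CPM divided by the annotated exon length in kb. On this scale the mean over libraries ran from 108 RPKM for RpL34a to 924 RPKM for RpL23 among the 81 genes, with a median of 426 RPKM. RpL5, first by CPM, has 3835 bp of annotated exon and came to 282 RPKM. RpL41, the smallest ribosomal protein with a coding length of 75 bp, averaged 268 CPM but 836 RPKM, with 682 and 853 RPKM in rRNA-depleted 2 and 1 and 722 and 1088 RPKM in polyA-enriched 2 and 1. RpL23 had 575 and 1022 RPKM in rRNA-depleted 2 and 1 and 756 and 1341 RPKM in polyA-enriched 2 and 1, so that RpL41 was above it in rRNA-depleted 2 and below it in the others. RpL38 (143 RPKM) and RpS21 (159 RPKM) were low on both scales. Exon length was the union over all annotated transcripts, so a gene with a long annotated transcript that the brain does not use would be set too low. As a description over the 84 genes, which share library and depth, the order of RPKM values was closer within the pair numbered 1 (Spearman's rho 0.981) than within the pair numbered 2 (0.825), between the 2 rRNA-depleted libraries (0.824) or between the 2 polyA-enriched libraries (0.844).

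Ribosomal protein genes took a smaller share of the counts in the libraries numbered 2. Together the 92 genes held 1.74% of all counts in rRNA-depleted 2 and 2.63% in polyA-enriched 2, against 3.82% in rRNA-depleted 1 and 5.35% in polyA-enriched 1 (95% Wilson intervals, which cover counting error only, were 1.73% to 1.75% in rRNA-depleted 2 and 5.34% to 5.36% in polyA-enriched 1). The mean was 2.19% ± 0.63 in the libraries numbered 2 and 4.59% ± 1.08 in those numbered 1 (SD, n = 2 each), a difference of -2.40 points, with p = 0.333 in an exact permutation test (two-sided), the smallest p that 2 libraries against 2 allow. If the numbers mark the RNA that was split, the 2 libraries of a number are not independent biological replicates. Between the labels the mean was 2.78% ± 1.47 in the rRNA-depleted and 3.99% ± 1.92 in the polyA-enriched libraries (SD, n = 2 each), a difference of -1.21 points, below the SD within either label (exact permutation test, p = 0.667), and it ran from -2.57 points without polyA-enriched 2 to 0.15 points without polyA-enriched 1. Within a number, the share in the rRNA-depleted library was 0.715 times that in the polyA-enriched library in pair 1 and 0.661 times in pair 2. In bulk RNA, fewer cells of a type and less RNA per cell cannot be told apart.

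To ask which genes changed by number, the libraries numbered 2 were compared with those numbered 1 using edgeR's quasi-likelihood test over all 9737 genes that passed the count minimum, with calls made where the p adjusted by Benjamini-Hochberg was under 0.05 and the log2 fold change beyond 1. If the numbers mark the split RNA, this sets a single biological replicate against another, each read by both protocols. The p-values, standard errors and calls by number then measure no spread between biological replicates. All but 1 of the 84 ribosomal protein genes had a lower estimate in the libraries numbered 2, and the median log2 fold change was -1.02, against 0.05 over all genes. Without a further term, 12 of the 84 fell past the threshold, against 2.42% of all genes called lower, and 62 of the 84 (73.8%) had an unadjusted p under 0.05, against 34.6% of all genes. With the label as a block, which removes the difference between the protocols, 49 of the 84 fell past the threshold, where 5.42% of all genes did, and the median was -1.06. DESeq2 without a block called 47, all of them among the 49, and with the label block it called 52. By adjusted p alone, with the label block and no fold limit, 81 fell, against 24.7% of all genes. A share over all genes was not taken for DESeq2. No ribosomal protein gene was called higher in the libraries numbered 2 by edgeR with or without the block. Of the 9737 genes, 575 were called higher without the block and 1026 with it. With any library left out, a group holds 1 library, so calls in such fits cannot show which libraries the 12 calls rest on. The median in these fits stayed between -1.35 and -0.78.

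The values themselves were separated by number for most members. After normalization with the trimmed mean of M values (TMM), both libraries numbered 2 were below both numbered 1 for 78 of the 84 genes, against 27.7% of all genes. The 6 genes where they overlapped were RpL13, RpL22, RpLP0-like, RpS14b, RpS19a and RpS5b. The log2 ratio of CPM, numbered 2 over numbered 1, had a median of -1.23 among the rRNA-depleted and -1.03 among the polyA-enriched libraries, and it was negative in 84 and 83 of the 84 genes. The ratios of the 2 protocols ran together over the genes as a description (Pearson's r = 0.61 over 83 genes without RpL38), although the points share their normalization.

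**Figure D2:**
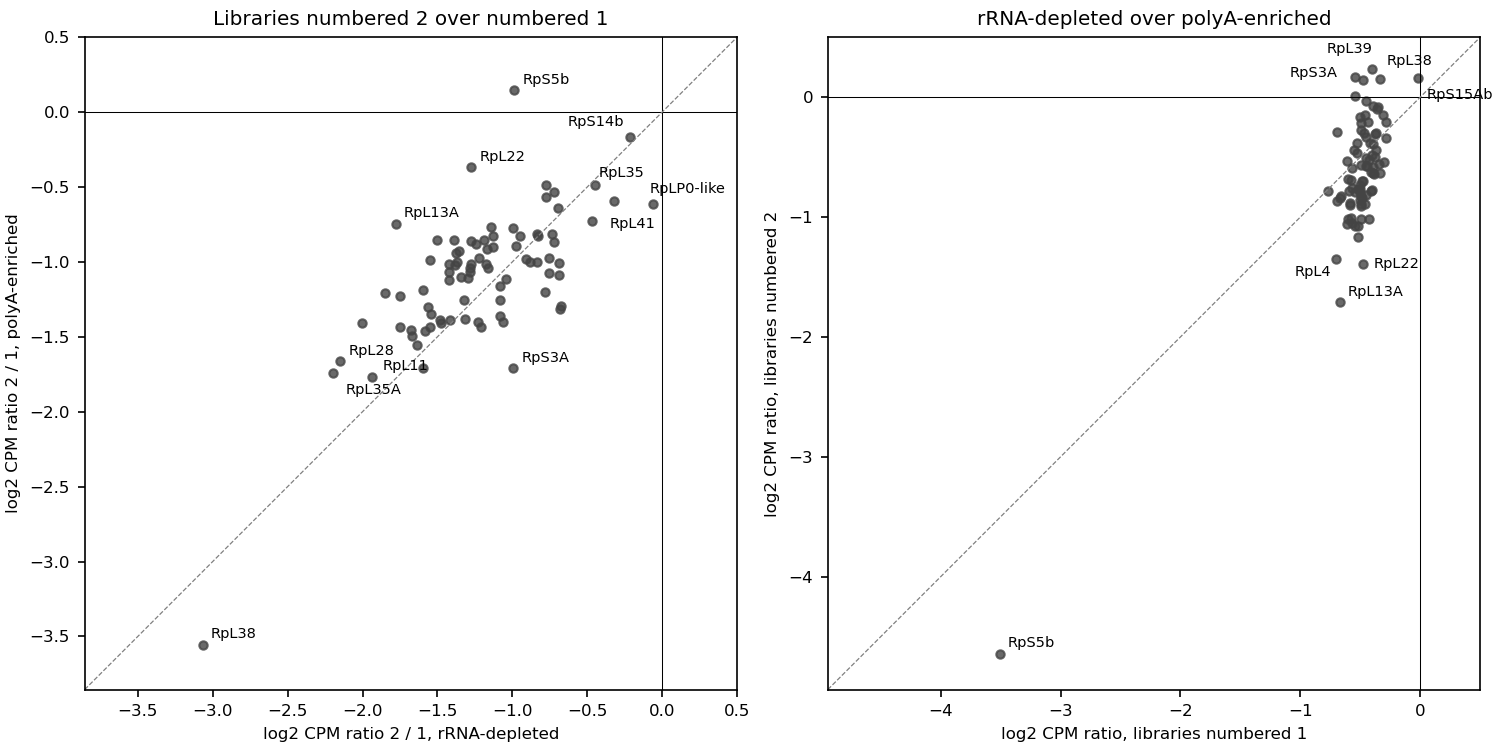
Each point is 1 of the 84 genes tested. Left, log2 ratio of CPM of the library numbered 2 over that numbered 1, rRNA-depleted on the horizontal and polyA-enriched on the vertical axis, with RpL38 alone below -3 on both. Right, log2 ratio of CPM of rRNA-depleted over polyA-enriched, in pair 1 on the horizontal and in pair 2 on the vertical axis, where the ratios of pair 2 spread further and RpS5b is at -3.51 and -4.64. Dashed lines mark equal ratios.

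RpL38 had the largest difference by number. This small protein of the large subunit, known from mouse embryos for its role in translating Hox mRNAs, is encoded in pericentromeric heterochromatin (chromosome 2R, 4515388 to 4516458, minus strand). It had 337 and 296 counts in the libraries numbered 2 (rRNA-depleted and polyA-enriched), against 3327 and 4061 in those numbered 1. The groups did not overlap. The CPM in the libraries numbered 2 was 0.119 times that in number 1 among the rRNA-depleted and 0.0851 times among the polyA-enriched libraries. The log2 fold change was -3.24 (standard error 0.19, edgeR adjusted p = 0.028), and with the label block -3.23 (standard error 0.12). No exon of another gene overlaps RpL38 in the annotation.

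The next members by size were all of the large subunit. RpL35A, on 3R from 5465630 to 5467101, had 877 and 1783 counts in the libraries numbered 2, against 4724 and 6970 in those numbered 1, a log2 fold change of -1.84 (standard error 0.43, edgeR adjusted p = 0.067). RpL28, on 3L from 3220911 to 3222960, had 827 and 1672 counts in the libraries numbered 2, against 4318 and 6186 in those numbered 1, a log2 fold change of -1.78. It shares exonic sequence with nSMase on the opposite strand. For RpL11, the partner of RpL5 in carrying 5S rRNA, the counts were 994 and 1771 in the libraries numbered 2 and 4485 and 7028 in those numbered 1, a log2 fold change of -1.76. These 3 genes missed the threshold without the block and passed it with the label block at log2 fold changes of -1.89, -1.82 and -1.77. RpL37A, a zinc finger protein of the large subunit that is distinct from RpL37a, passed in both fits. It had 1120 and 1479 counts in the libraries numbered 2, against 3991 and 5646 in those numbered 1, and its log2 fold change was -1.59 (standard error 0.25, edgeR adjusted p = 0.040).

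Besides RpL38 and RpL37A, the genes called without the block included RpL29 and RpL36A of the large subunit and RpS3A, RpS15Aa, RpS15Ab, RpS18, RpS21, RpS27 and RpS27A of the small subunit. All 12 were among the 49 called with the label block. RpS27A, which is made as a fusion to ubiquitin, had 2398 and 2701 counts in the libraries numbered 2 and 6514 and 8512 in those numbered 1. RpS18 had 1885 and 2570 counts in the libraries numbered 2 and 6888 and 8812 in those numbered 1, a log2 fold change of -1.52 (standard error 0.23, edgeR adjusted p = 0.038). RpS27A shares exonic sequence with Ip259 on the same strand, so part of its counts may belong to that gene. RpS3A, which with RpS27A was called in both fits, had 3305 and 2874 counts in the libraries numbered 2, against 7757 and 10965 in those numbered 1.

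The least change by number was seen in RpS5b, RpS14b, RpLP0-like, RpL41 and RpL35. RpS14b had 1682 and 2330 counts in the libraries numbered 2 and 2298 and 3046 in those numbered 1, a log2 fold change of -0.11 (standard error 0.24, edgeR adjusted p = 0.81). RpLP0-like, the fly counterpart of the yeast ribosome assembly factor Mrt4, had 208 and 202 counts in the libraries numbered 2 and 255 and 360 in those numbered 1, a log2 fold change of -0.28 (standard error 0.23). RpS5b was the exception in sign at 0.13, with a standard error of 1.75 that allows a change in either direction. These 3 were also the members that did not pass an adjusted p of 0.05 with the label block. RpL41 had 2649 and 2736 counts in the libraries numbered 2 and 3902 and 4811 in those numbered 1, and RpL35 had 4528 and 5763 in the libraries numbered 2 and 7285 and 9423 in those numbered 1. With the label block both fell, by 0.38 (RpL41) and 0.39 (RpL35) on the log2 scale.

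The subunits and the stalk did not stand apart from each other by number. With the label block the median log2 fold change was -1.06 over 45 large subunit genes (27 called lower), -1.09 over 34 small subunit genes (20 called lower) and -1.02 over the 3 stalk genes (2 called lower), a difference that was not tested. The stalk proteins form the lateral arm of the large subunit that recruits elongation factors. RpLP1 had 1520 and 2661 counts in the libraries numbered 2, against 5703 and 8758 in those numbered 1. RpLP0 and RpLP2 had log2 fold changes of -0.98 and -1.02 with the label block. The 2 -like genes tested, RpL24-like and RpLP0-like, had a median of -0.43. By chromosome, the medians with the label block ran from -0.82 over 14 genes on X to -1.19 over 19 genes on 2R, and RpS3A, on chromosome 4, had -1.27.

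Ribosomal protein mRNAs are short, and the difference by number varied with transcript length over the whole table. The longest annotated transcript had a median of 882 bp over the 84 genes and 2135 bp over 9105 other protein-coding genes tested, the coding length 466.5 against 1440 bp, and the 5′ UTR 69 against 158 bp. Among the other genes the median log2 fold change with the label block was -0.62 between 500 and 750 bp, -0.45 between 750 and 1000 bp, -0.30 between 1000 and 1500 bp and 0.66 above 5000 bp. The ribosomal protein genes had medians of -1.17 (29 genes), -0.98 (22 genes) and -0.99 (27 genes) in the first 3 of these classes, each below the lower quartile of the other genes of its class, which was -0.98, -0.83 and -0.65. Below 500 bp, the 3 members had a median of -0.92, within the quartiles of the other genes. Among the members themselves the change showed little relation to exon length, as a description (Spearman's rho 0.12 over 84 genes). The part of transcript length in the difference by number was not tested.

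**Figure D3:**
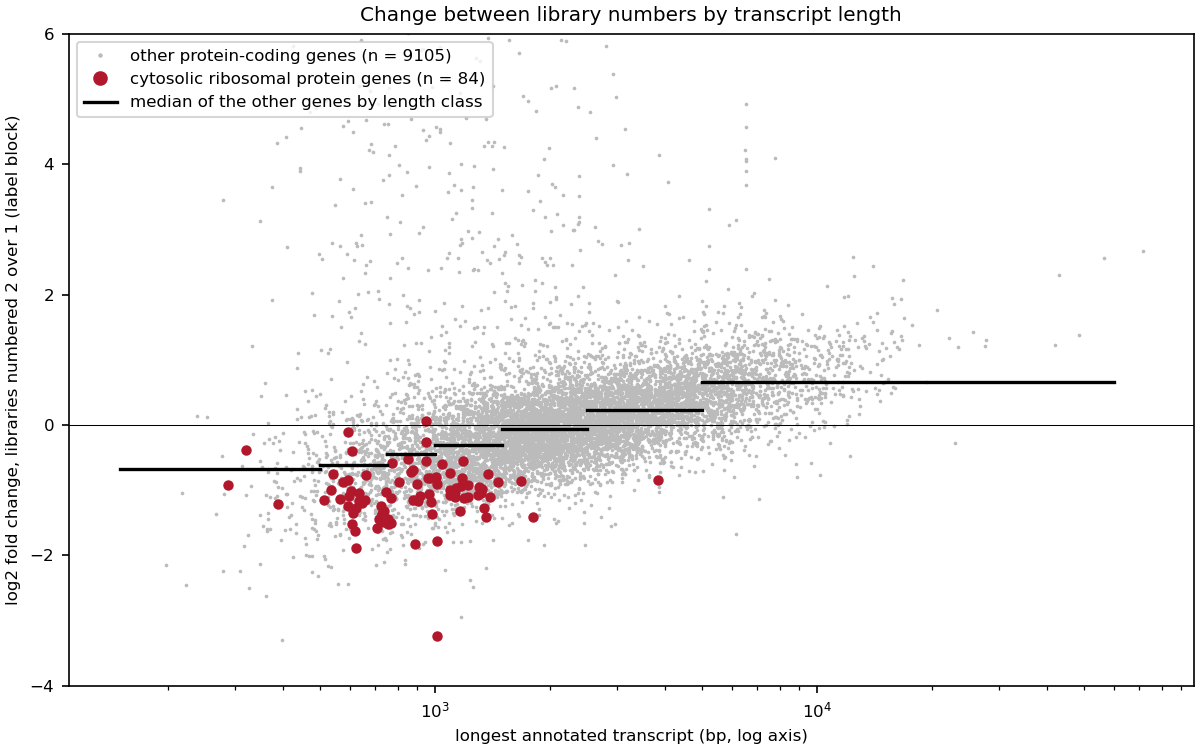
Log2 fold change of the libraries numbered 2 over 1 with the label block against the longest annotated transcript (bp, log axis), for 9105 other protein-coding genes in grey and the 84 ribosomal protein genes in red. Black bars are medians of the other genes by length class, from -0.67 up to 500 bp to 0.66 above 5000 bp, and most red points lie below them. A further 46 points lie outside the vertical axis.

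The cells of the samples were read from marker genes in the same libraries. Summed over 8 neuronal markers, all tested, the level was 9958 and 8348 CPM in the libraries numbered 2 (rRNA-depleted and polyA-enriched) and 9919 and 7951 CPM in those numbered 1. The near-equal sums hide changes in both directions. With the label block 3 of the 8 were lower and 4 higher at an adjusted p under 0.05 by edgeR. Over all 9737 genes tested, 2401 were lower and 3072 higher by the same measure. Log2 fold changes ran from nSyb at -0.69 to VGlut at 1.03, and 1 marker was called higher, as were 1026 of the 9737 genes. Over 6 glial markers the sum was 2486 and 2519 CPM in the libraries numbered 2 and 4240 and 3751 CPM in those numbered 1. With the label block 3 of the 6 were lower and 2 higher at an adjusted p under 0.05 by edgeR, with none past the fold limit of a call. Gs2, with the most counts of the 6, had 13247 and 14886 in the libraries numbered 2, against 35271 and 29816 in those numbered 1. Its log2 fold change was -0.90, whereas repo had 0.64 and moody 0.74. The sums of the photoreceptor, fat body and muscle markers differed mainly by label, as given below. The part of glial content in the difference by number was not tested.

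To ask what changed by label, the rRNA-depleted libraries were compared with the polyA-enriched ones in the same way. Ribosomal protein genes had lower estimates in the rRNA-depleted libraries, with a median log2 fold change of -0.49 against 0.04 over all genes and 83 of 84 estimates below 0. Without a block, edgeR called 0 of the 84, where 0% of all genes were called, and 1 of the 84 (1.19%) had an unadjusted p under 0.05, against 11.3% of all genes. DESeq2 called RpS5b alone. The spread between the numbers within a label was larger than this difference, and in this fit the median ran from -1.18 without rRNA-depleted 1 to 0.21 without polyA-enriched 1. Such a fit leaves a number without its partner and so carries part of the difference by number, and within the pairs the median was below 0 in both, as given below. With the replicate number as a block, which compares the libraries within each pair, the median was -0.47, and RpS5b and RpL13A fell past the threshold, where 12.1% of all genes did. RpS5b passed the count minimum only through the polyA-enriched libraries, so its lower calls in both tools were partly fixed by the filter. By adjusted p alone, with the replicate block and no fold limit, 72 of the 84 fell, against 19.2% of all genes, and 0 rose, where 1085 of the 9737 genes did. Both rRNA-depleted libraries were below both polyA-enriched ones for only 5 of the 84 genes, against 20.6% of all genes, and these were RpL13, RpL22, RpS14b, RpS19a and RpS5b.

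Within the pair numbered 1 the ratio varied little over the abundant members, whereas over all 84 genes it ran from -3.51 for RpS5b to -0.02 for RpS15Ab. The log2 ratio of CPM, rRNA-depleted over polyA-enriched, was below 0 in 84 of 84 genes with a median of -0.49, and over the 81 abundant genes it ran from -0.77 to -0.28 with an SD of 0.10. Within the pair numbered 2 it was below 0 in 78 of 84 genes with a median of -0.63, and over the same 81 genes it ran from -1.71 to 0.23 with an SD of 0.37. The 95% counting interval had a median half-width of 0.05 in pair 1 and 0.08 in pair 2, so the spread in pair 2 was larger than counting error. Each pair is 1 library of each label, so neither has a replicate of its own. All genes tested had medians of -0.03 in pair 1 and -0.02 in pair 2.

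RpL13A, on 3R from 5624474 to 5625947, showed the largest difference by label among the abundant members. It had 98.2 and 337 CPM in rRNA-depleted 2 and 1, against 321 and 537 CPM in polyA-enriched 2 and 1. The level was 0.306 times that of the polyA-enriched library in pair 2 and 0.627 times in pair 1, and the log2 fold change with the replicate block was -1.12 (standard error 0.11, edgeR adjusted p = 5.4e-13). With DESeq2 and the block it was -1.07 with an adjusted p of 0.14, so the call depended on the tool. RpL4, a large subunit protein that lines the exit tunnel, had 217 and 616 CPM in rRNA-depleted 2 and 1 and 553 and 999 CPM in polyA-enriched 2 and 1. Its log2 fold change was -0.97 in the fit with the block (standard error 0.10). For RpL22, which in flies carries an extension resembling histone H1, the CPM was 223 and 539 in rRNA-depleted 2 and 1 and 583 and 751 in polyA-enriched 2 and 1, with both rRNA-depleted libraries below both others. RpL22 shares exonic sequence with lncRNA:CR42491 on the same strand. The block estimate for RpL18 was -0.78. In RpL13A, RpL4, RpL22 and RpL18 the log2 ratio of pair 2 was below -1, and in pair 1 it lay between -0.70 and -0.48. In all, 13 members had a ratio below -1 in pair 2.

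At the other end, RpS15Ab, RpL39, RpL38, RpL15 and RpS3A had log2 fold changes by label of 0.10, -0.04, -0.09, -0.12 and -0.14 with the replicate block, and none of the 5 passed the test. RpL15 had 367 and 586 CPM in rRNA-depleted 2 and 1, against 334 and 817 CPM in polyA-enriched 2 and 1. The rRNA-depleted library was thus the higher of pair 2 and the lower of pair 1. RpS3A showed the same with 272 and 543 CPM in rRNA-depleted 2 and 1, against 243 and 793 CPM in polyA-enriched 2 and 1. Of these 5 genes, RpL15 (3L from 27267255) and RpL38 lie in pericentromeric heterochromatin and RpS3A lies on chromosome 4 (from 65225 to 67207), a chromosome rich in heterochromatin. RpL5, which also lies in pericentromeric heterochromatin (2L from 22532279), came to -0.25 in the same fit. Position was noticed after the values were seen, the other members were not surveyed for it, and its part in the ratios was not tested. RpL39 shares exonic sequence with RpL12 on the opposite strand, and the strand setting of the counting is not given in the sources used here.

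The other genes of translation were counted beside the ribosomal proteins. Of 73 mitochondrial ribosomal protein genes, 72 were tested, and with the label block 23 fell past the threshold by number (63 at any fold, 1 higher at any fold), with a median of -0.75 from mRpL34 at -2.50 to mRpL30 at 0.32. By label they had a median of 0.07 with the replicate block, with 0 called and 0 lower and 2 higher at any fold, whereas the cytosolic genes had -0.47. A test of the difference between these lists was not made. Of 38 initiation factors tested, 4 fell and 0 rose past the threshold by number (21 fell and 7 rose at any fold), from eIF4E-6 at -1.90 to eIF5B at 0.59, and the medians were -0.39 by number and -0.17 by label. Of 9 elongation and release factors, 1 fell past the threshold by number, eIF-5A at -1.09, a gene that is also in the initiation list. By label 3 of the 9 fell past it with the replicate block, namely Ef1alpha48D, which delivers aminoacyl-tRNA, at -1.39, Ef1gamma at -1.29 and Ef1beta at -1.05. The median of the 9 was -0.48 by number and -0.55 by label.

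Ribosome biogenesis genes, which act in the nucleolus, had medians of 0.04 by number and -0.06 by label over 24 genes, and 1 of them fell past the threshold by number, CG7637 at -1.85, and 0 rose past it. A list of ribosomal and ribosome-bound proteins with other symbols held sta and Rack1, and also Ubi-p5E and Ubi-p63E, which encode polyubiquitin and no ribosomal protein. The small subunit protein sta had 4340 and 8857 counts in the libraries numbered 2 (rRNA-depleted and polyA-enriched), against 16425 and 21217 in those numbered 1, and log2 fold changes of -1.28 by number and -0.69 by label. Rack1, which binds the head of the small subunit, had -1.08 by number and -0.83 by label. Ubi-p5E had -0.98 by number and 0.26 by label, and Ubi-p63E had -0.35 and 0.30.

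**Figure D4:**
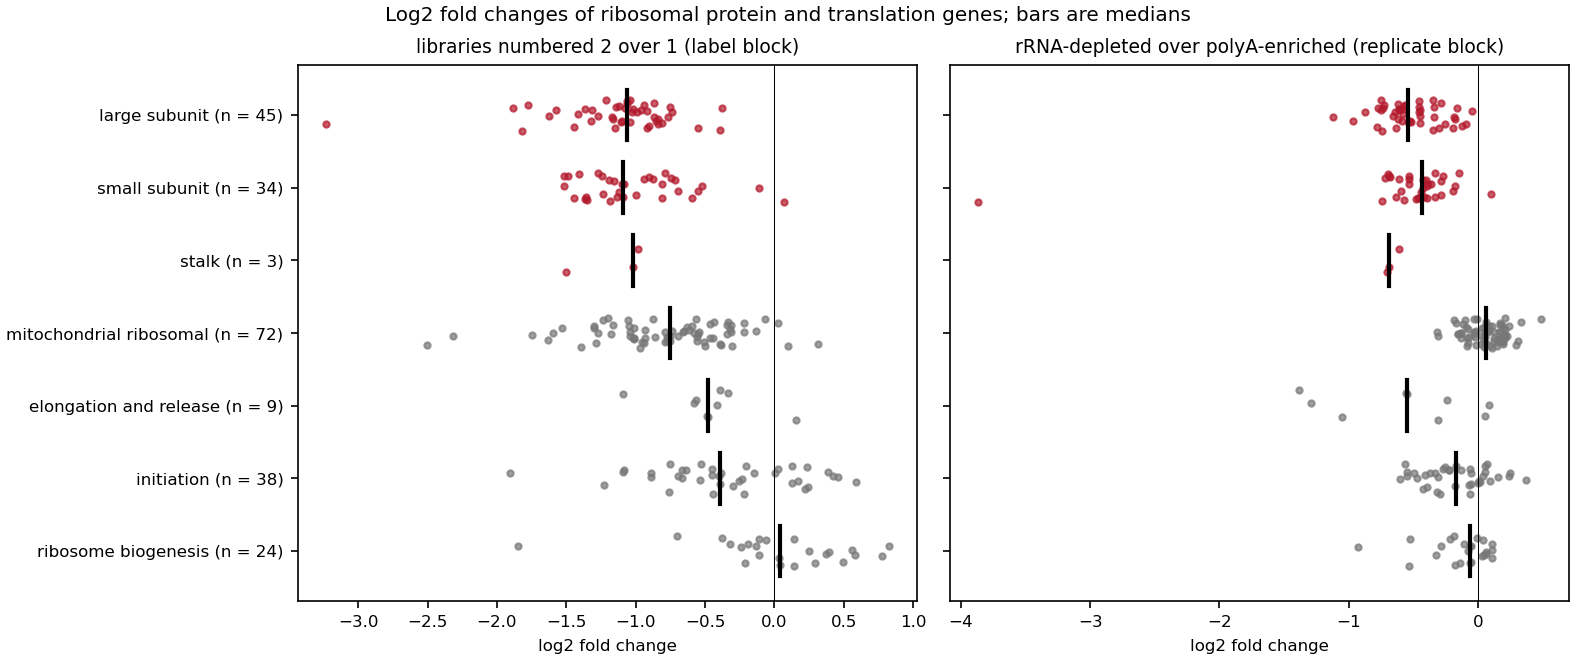
Log2 fold change of each gene tested, by number with the label block (left) and by label with the replicate block (right). Rows are the large subunit, small subunit and stalk genes in red and other translation genes in grey, points are genes and black bars are medians. The medians of the cytosolic rows are near -1 by number and near -0.5 by label, and that of the mitochondrial row is -0.75 by number and 0.07 by label.

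Paralogues divided into pairs in which both copies were read and pairs with a silent or nearly silent copy. RpL24-like, the fly counterpart of the yeast assembly factor Rlp24, was abundant at 174 and 281 CPM in rRNA-depleted 2 and 1 and 220 and 342 CPM in polyA-enriched 2 and 1. Its share of the counts of RpL24-like and RpL24 was 44.2% and 33.2% in rRNA-depleted 2 and 1, against 36.8% and 31.2% in polyA-enriched 2 and 1. RpL34a held 16.6% and 16.0% of the counts of RpL34a and RpL34b in rRNA-depleted 2 and 1 and 13.6% and 16.8% in polyA-enriched 2 and 1. RpS14a and RpS14b are tandem copies on X, from 7933742 to 7934677 and from 7934898 to 7935792, that encode the same protein and are nearly identical in sequence. RpS14b was assigned 33.6% and 26.0% of their counts in rRNA-depleted 2 and 1 and 38.3% and 28.4% in polyA-enriched 2 and 1. The split is uncertain, because the sources used here do not say how reads matching several places were treated, and the same holds for the levels of RpS14b given above.

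RpLP0-like held 5.45% and 2.48% of the counts of RpLP0-like and RpLP0 in rRNA-depleted 2 and 1, against 3.10% and 2.58% in polyA-enriched 2 and 1. RpS15Ab held 5.12% and 5.73% of the counts of RpS15Ab and RpS15Aa in rRNA-depleted 2 and 1, against 4.14% and 4.15% in polyA-enriched 2 and 1. It had 127 and 111 counts in the libraries numbered 2 and 351 and 343 in those numbered 1, a log2 fold change of -1.23 (standard error 0.17, edgeR adjusted p = 0.036). By label it did not pass the test.

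The copies left out of the tests were low. RpS10a held at most 0.069% of the counts of RpS10a and RpS10b in any library. For RpL10Aa, RpL22-like, RpS28a and RpS28-like, 0 counts in rRNA-depleted 2 allow a share of the pair of up to 0.128%, 0.142%, 0.140% and 0.140% (upper 95% Wilson limits), the widest of the 4 libraries. RpL7-like, RpL37b and RpS19b reached at most 0.025% of their pair. Their abundant partners RpL10Ab, RpL22, RpS28b, RpL7, RpL37a and RpS19a had mean levels from 356 CPM for RpS19a to 524 CPM for RpL22. Of 10 testis germline markers, 2 were tested, dj, Mst84Da and Mst35Ba were at 0 in every library, and the sum over the 10 was 36.7 and 42.3 CPM in the libraries numbered 2 and 9.30 and 11.1 CPM in those numbered 1, carried by twe and fzo. The low ribosomal protein copies named here were at or below the floor or within a few counts of it in the same libraries. RpL7-like shares exonic sequence with CG34164, and RpS28-like with CG3769, on the same strand. Reads of these copies may therefore have been left uncounted.

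**Figure D5:**
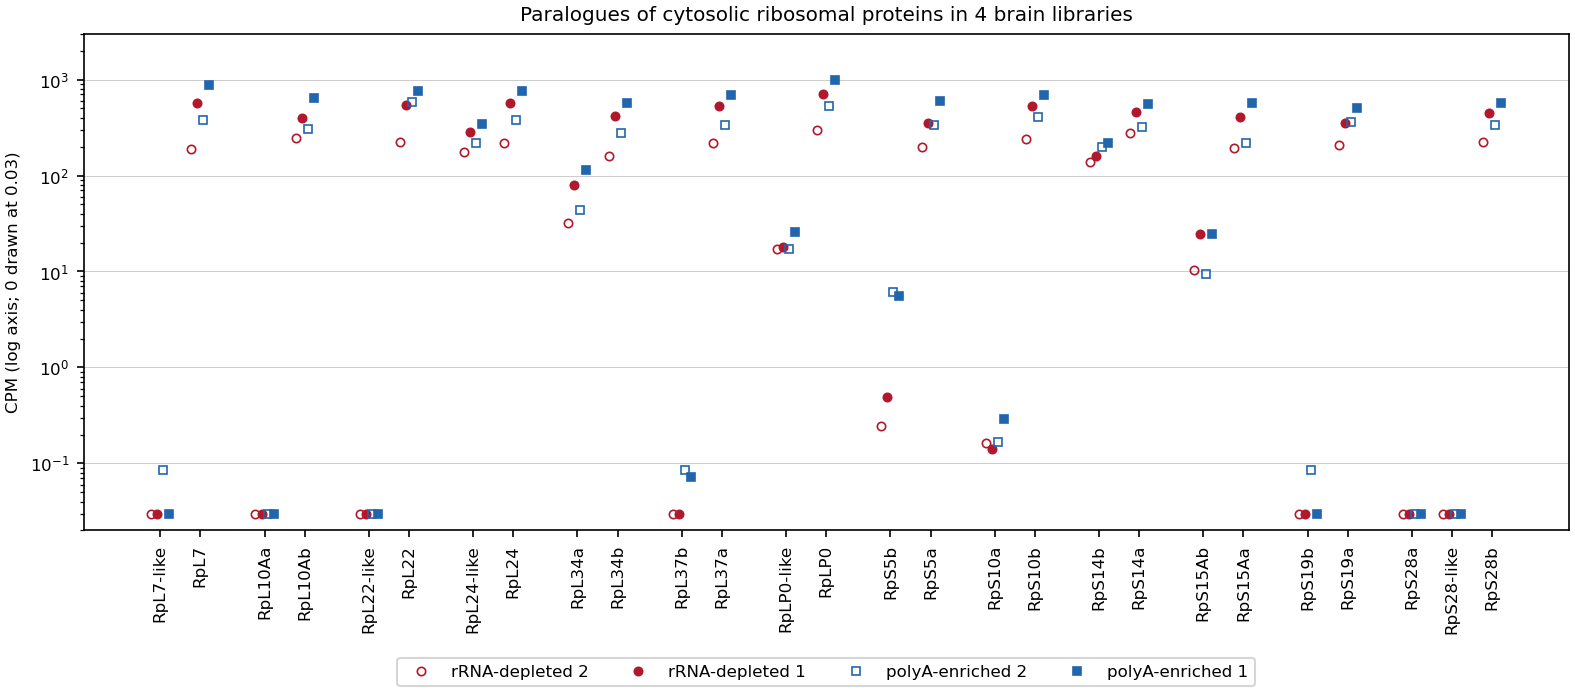
CPM (log axis, 0 drawn at 0.03) of paralogues of cytosolic ribosomal proteins in the 4 libraries, with each minor copy left of its partner. Open symbols are numbered 2 and filled symbols numbered 1, circles are rRNA-depleted and squares polyA-enriched. RpL24-like, RpL34a and RpS14b lie within the range of abundant members, 8 minor copies are at or near 0, and RpS5b has the largest difference by label.

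RpS5b, the paralogue of RpS5a that is enriched in the germline, was the member that differed most by label. Its locus is 14900432 to 14901563 on 3R (minus strand), and it had 3 and 7 counts in rRNA-depleted 2 and 1, against 73 and 77 counts in polyA-enriched 2 and 1. This was 0.247 CPM, the floor itself, and 0.490 CPM in rRNA-depleted 2 and 1, against 6.17 and 5.57 CPM in polyA-enriched 2 and 1, with no overlap. The level in the rRNA-depleted library was 0.0401 times that in the polyA-enriched library in pair 2 (log2 ratio -4.64, 95% counting interval -6.31 to -2.98) and 0.0879 times in pair 1 (-3.51, interval -4.62 to -2.39). RpS5b passed the count minimum only through the polyA-enriched libraries, so its presence among the genes tested depended on its being high there. The log2 fold change was -3.91 without a block (standard error 0.57, edgeR adjusted p = 0.078) and -3.87 with the replicate block (standard error 0.41, edgeR adjusted p = 3.1e-12). RpS5b held 0.13% and 0.14% of the counts of RpS5b and RpS5a in rRNA-depleted 2 and 1, against 1.78% and 0.92% in polyA-enriched 2 and 1.

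Markers of several tissues and of neurons differed by label in the same libraries. The 8 neuronal markers had estimates above 0 in the rRNA-depleted libraries, with a median of 0.35 with the replicate block. Of the 8, 6 rose at an adjusted p under 0.05 by edgeR, with 0 past the fold limit. By the same measure 1085 of the 9737 genes tested rose. Of 8 ovary and germline markers, 6 were tested and 5 of them fell past the threshold with the replicate block. Over all genes 12.1% did, and the counts of the next lists are to be read beside the same share. The 8 markers had a sum of 6.26 and 5.46 CPM in rRNA-depleted 2 and 1 and 44.1 and 45.0 CPM in polyA-enriched 2 and 1. The lowest estimates were those of osk and nos. The counts of osk were 5 and 3 in rRNA-depleted 2 and 1, against 196 and 353 in polyA-enriched 2 and 1. Those of nos were 3 and 1 in rRNA-depleted 2 and 1, against 83 and 86 in polyA-enriched 2 and 1. At the other end, aub had 17 and 29 counts in rRNA-depleted 2 and 1, against 35 and 48 in polyA-enriched 2 and 1. Its log2 fold change was -0.85 and it was not called. Fat body markers (9 of 9 fell) summed to 2359 and 1176 CPM in rRNA-depleted 2 and 1 and 13812 and 15224 CPM in polyA-enriched 2 and 1, and photoreceptor markers (12 of 13 fell) to 1215 and 1000 CPM in rRNA-depleted 2 and 1 and 3316 and 4015 CPM in polyA-enriched 2 and 1. Muscle markers (7 of 9 fell) summed to 267 and 222 CPM in rRNA-depleted 2 and 1 and 556 and 448 CPM in polyA-enriched 2 and 1, and haemocyte markers (2 of 5 fell past the threshold) to 471 and 455 CPM in rRNA-depleted 2 and 1 and 793 and 590 CPM in polyA-enriched 2 and 1. Most of the muscle sum in the rRNA-depleted libraries was Tm1, with 207 and 192 CPM in rRNA-depleted 2 and 1 and 219 and 200 CPM in polyA-enriched 2 and 1, while the median log2 fold change of the 9 was -4.30. In the photoreceptor sum, norpA had 909 and 568 CPM in rRNA-depleted 2 and 1 and 861 and 633 CPM in polyA-enriched 2 and 1, and the median of the 13 was -2.87. Like RpS5b, some markers passed the count minimum only through the polyA-enriched libraries, with fewer than 2 rRNA-depleted libraries at 10 counts, so that their lower level there was partly fixed by the filter. These were 3 of the 6 ovary and germline markers (osk, nos and otu), 3 of the 9 fat body, 4 of the 9 muscle and 1 of the 13 photoreceptor markers, and without them 2, 6, 3 and 11 markers of these lists fell. The part of these tissues in the level of RpS5b, or in the lower level of other ribosomal protein genes by label, was not tested.

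Ribosomal protein genes also host snoRNAs in their introns, which guide the modification of rRNA. In the annotation 74 snoRNAs lie inside 28 of the 92 genes, and 72 of them are in the table. They summed to 203 and 186 CPM in the libraries numbered 2 (rRNA-depleted and polyA-enriched), against 18.4 and 18.5 CPM in those numbered 1, and both libraries numbered 2 were above both numbered 1 for 56 of the 72. The same held in 23.5% of all 16725 genes and in 30.9% of the 9737 genes tested. The host genes went the other way, with a median log2 fold change by number of -1.09 over 28 hosts with the label block, beside -1.02 over 56 members without a snoRNA. RpL3 had -0.86, while its 4 snoRNAs together had 769 and 596 counts in the libraries numbered 2, against 15 and 18 in those numbered 1. RpS7 had 2285 and 4696 counts in the libraries numbered 2, against 7859 and 10875 in those numbered 1, while the snoRNAs inside it had 821 and 855 in the libraries numbered 2, against 17 and 16 in those numbered 1. Of 27 hosts whose snoRNAs had a count, the sum was higher in the libraries numbered 2 in 25. The exceptions were RpL27A, whose snoRNA had 0 and 3 counts in the libraries numbered 2 and 6 and 7 in those numbered 1, and RpL23A, with 9 and 1 counts in the libraries numbered 2 and 7 and 8 in those numbered 1. By label the hosts had a median of -0.59 with the replicate block and the other members -0.45.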

How the data were processed

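RNA of 4 brain libraries was analysed. The authors used Trimmomatic for trimming, STAR for alignment (dm6) and featureCounts for counting, and deposited raw counts per gene without normalization. Versions, gene annotation, strand setting and treatment of multimapping reads are not given in the sources used here. Reads shared by near-identical copies, or by genes with overlapping exons (30 of the 92 genes, 6 of them on the same strand), could be split, dropped or misassigned. Columns were matched to samples by library name, with 0 left unassigned. Of 16729 rows, 4 held no counts (the broken rows of Dscam1 and para) and were left out. Of the 16725 genes, 12509 were matched to the Ensembl annotation by symbol, 4057 by an older symbol and 159 not at all.

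Counts were fitted with edgeR 4.0.16 in R 4.3.3 (TMM normalization, quasi-likelihood test, at least 10 counts in at least 2 libraries, Benjamini-Hochberg adjustment over 9737 genes, called at adjusted p under 0.05 and a log2 fold change beyond 1), and the scripts were tested on simulated data. The standard error was taken as the absolute log2 estimate over the root of its F statistic. CPM used the library totals. The label was compared without and with the number as a replicate block, and the number without and with the label as a block. DESeq2 1.42.0 served as the second tool, and Python 3.11.15 as the language of the descriptive steps.

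Pairing rests on the statement in the methods of the study that total RNA was split and on the numbers in the library names. Libraries with the same number deviated from the mean of their label together (r = 0.902 over 9737 genes), which does not show what the number stands for. Libraries made from the same RNA share its tissue content. Within a number, however, the sum of the fat body markers was 1176 CPM in rRNA-depleted 1 and 15224 CPM in polyA-enriched 1. In the libraries numbered 2 it was 2359 CPM (rRNA-depleted) and 13812 CPM (polyA-enriched). Whether the libraries of a number came from the same RNA was not tested. Nothing in the labels says what else the numbers mark, so batch and number cannot be told apart, and p-values measure the spread between these 4 libraries. If the pairing holds, the comparison by number has a single biological replicate on each side, so its p-values do not extend to other replicates.

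The members, lists and tests were chosen with earlier results of these data known. Members to be named were the 5 highest and the 5 lowest in mean CPM, the 5 most and 5 least changed by number and by label (with the replicate block), and every paralogue, apart from items that are not reported here. Others named (calls, exceptions and single values such as RpL23) were chosen after their values were seen. Of each comparison list at most 4 genes are named, its extremes or its calls. Promoter motifs and protein identities were not analysed, since no sequences were used here.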

Additional observations from a re-analysis of the deposited data

Results flagged for a closer look

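Groups of 2 libraries are too small to ask whether a library stands apart. Among the 81 members with a mean above 20 CPM, 3 had log2 ratios of rRNA-depleted over polyA-enriched of opposite sign in the pairs numbered 1 and 2, with both 95% counting intervals clear of 0. RpL15 had -0.48 in pair 1 and 0.14 in pair 2 (difference -0.618), RpL39 had -0.40 and 0.23 (difference -0.633) and RpS3A had -0.55 and 0.16 (difference -0.713). With 1 library of each label in a pair, the difference between the pairs was not tested.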

How the results depend on the processing

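Lists and settings were chosen with earlier results known, and the fits that join a block with another tool or scaling were added after seeing the data. By label, 0 members were called without a block, and 2 were called with the replicate block, 1 with DESeq2, 1 with the replicate block in DESeq2, 3 with the block and library totals, and 2 with the block and TMM factors from the other genes. Leaving out a library gave 0 to 1. By number, 12 were called, and 49 with the label block, 47 with DESeq2, 52 with the label block in DESeq2, 54 with the block and library totals, 49 with the block and TMM factors from the other genes, 1 without the count filter and 0 at an adjusted p under 0.01. Leaving out any library gave 0 to 0. The cause of these changes was not tested. With a library left out, a group holds 1 library that is assumed to vary like the others, so those counts do not show which libraries the calls rest on.

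The median by label stayed between -0.53 and -0.39 under the other settings and ran from -1.18 to 0.21 with a library left out, and by number it ran from -1.35 to -0.78. Signs turned for RpL39 (0.033) and RpL38 (0.0037) by label in DESeq2 with the replicate block, and for RpS5b (-0.20) by number in DESeq2 with the label block. With a library left out, the label estimate ran from -0.72 to 0.60 for RpL15, -1.78 to 0.13 for RpL18, -2.40 to 2.47 for RpL38, -0.65 to 0.70 for RpL39, -0.60 to 0.98 for RpS15Ab and -0.91 to 0.83 for RpS3A, and the number estimate from -0.33 to 0.10 for RpS14b and -0.75 to 1.08 for RpS5b.

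With 2 libraries per group, an exact test of a single value cannot go below p = 0.333. Depth limits RpS5b and the silent paralogues, whose counts in the rRNA-depleted libraries were 7 or fewer. The planned comparison of promoter motifs and protein identity was not run.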
